A study of Mus musculus with 20 samples.

Results

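The ligands and receptors of the TNF superfamily were examined in cecum tissue of mice fed a Western-style diet with or without raw potato starch (RPS), a resistant starch that reaches the large intestine undigested. The genes were taken by name alone, as every gene of the table whose symbol starts with Tnfsf or Tnfrsf, together with Tnf, Lta and Ltbr. This gave 35 of the 19887 genes, 14 of them ligands and 21 receptors. C57BL/6 mice were given the Total Western Diet (TWD) from 3 weeks of age for 6 weeks, and then for 3 more weeks either the TWD alone (0% RPS) or the TWD with 2, 5 or 10% RPS, so that the controls also ate the TWD throughout and no group stayed on chow. Each diet had 5 mice, 20 in all, each sequenced as 1 library of 14967798 to 42687283 counts from sections of the cecum wall. The labels name no sequencing batch, and RNA of all cells of the section was pooled. Markers of gut epithelium were abundant in all 20 libraries, with Epcam at 1521 to 2125 counts per 1000000 counts (CPM), which fits the labelled tissue.

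Ligands of this family are mostly trimeric proteins of the cell surface, some of which are shed, and their receptors carry cysteine-rich repeats outside the cell. Receptors with a death domain can start caspases, many receptors with or without one recruit TRAF adaptors and switch on NF-kB, and a few act as decoys. In the gut wall the family is known for inflammation (TNF), for building and keeping lymphoid follicles (lymphotoxin, RANK ligand), for B cell survival (BAFF, APRIL) and for costimulation of T cells.

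A few ligands with a role in inflammation and in follicles, Tnf, Lta and Tnfsf11, have the letters TATAAA, the core of the TATA box, within 200 bases before the start of their canonical transcript in GENCODE on GRCm39, the build named for the counts. These windows are shown as examples from genes that had the same highest mouse with 0% and with 2% RPS in the results. Other genes shared those mice. Among them, Tnfrsf18 and Tnfsf9 have the match, whereas Tnfrsf13b, Tnfrsf13c, Tnfrsf25, Tnfrsf26, Tnfsf8 and Tnfsf14 lack it. A link between the match and these mice was not tested. The windows shown lie on the minus strand, at chr17:35420984-35421183, chr17:35424328-35424527 and chr14:78545491-78545690, and capitals mark the match on either strand.
Tnf: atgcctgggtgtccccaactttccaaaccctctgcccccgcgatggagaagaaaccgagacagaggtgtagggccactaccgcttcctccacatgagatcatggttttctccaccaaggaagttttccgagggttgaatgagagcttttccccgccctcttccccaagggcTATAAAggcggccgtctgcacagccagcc
Lta: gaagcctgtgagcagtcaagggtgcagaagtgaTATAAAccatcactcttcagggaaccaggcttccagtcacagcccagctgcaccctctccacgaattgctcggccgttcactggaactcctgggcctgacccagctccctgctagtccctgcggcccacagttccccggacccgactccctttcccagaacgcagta
Tnfsf11: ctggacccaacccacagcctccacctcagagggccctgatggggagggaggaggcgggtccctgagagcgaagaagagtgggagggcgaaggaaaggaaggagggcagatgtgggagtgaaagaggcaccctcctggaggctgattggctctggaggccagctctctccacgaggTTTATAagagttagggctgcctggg
The match starts at -29 in Tnf, at -167 in Lta and, on the opposite strand, at -25 in Tnfsf11. Of the 30 genes tested below, 8 (26.7%) held TATAAA in this window on either strand, against 974 of 15336 promoters of tested genes (6.35%). The NF-kB consensus, searched on both strands, was in 2 of the 30 windows (6.67%), those of Tnfrsf8 and Tnfsf15, against 3.74% of all. Neither motif was in the windows of Tnfrsf14, Tnfrsf25 and Tnfrsf19, the genes past the threshold with 10% RPS below. A match is a description of letters only.

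The highest levels belonged to receptors. Per kilobase of exon, Ltbr, the lymphotoxin beta receptor, led with a mean of 52.6 CPM per kb over the 20 mice. It was followed by Tnfrsf1a (TNF receptor 1) at 26.4 CPM per kb, Tnfrsf21 (death receptor 6) at 24.6 and Tnfrsf11a (RANK) at 10.0. The first 7 places were all held by receptors, and Tnfsf10, which encodes the death ligand TRAIL, was the most abundant ligand at 3.90 CPM per kb in the eighth place, above 14 of the 21 receptors. Tnf itself averaged 0.647 and Lta 0.642 CPM per kb. Counts were too low for testing in Tnfsf4 (33 counts over all mice), Tnfsf18 (124) and Tnfrsf9 (138), which belong to the OX40, GITR and 4-1BB costimulatory pairs.

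**Figure D1:**
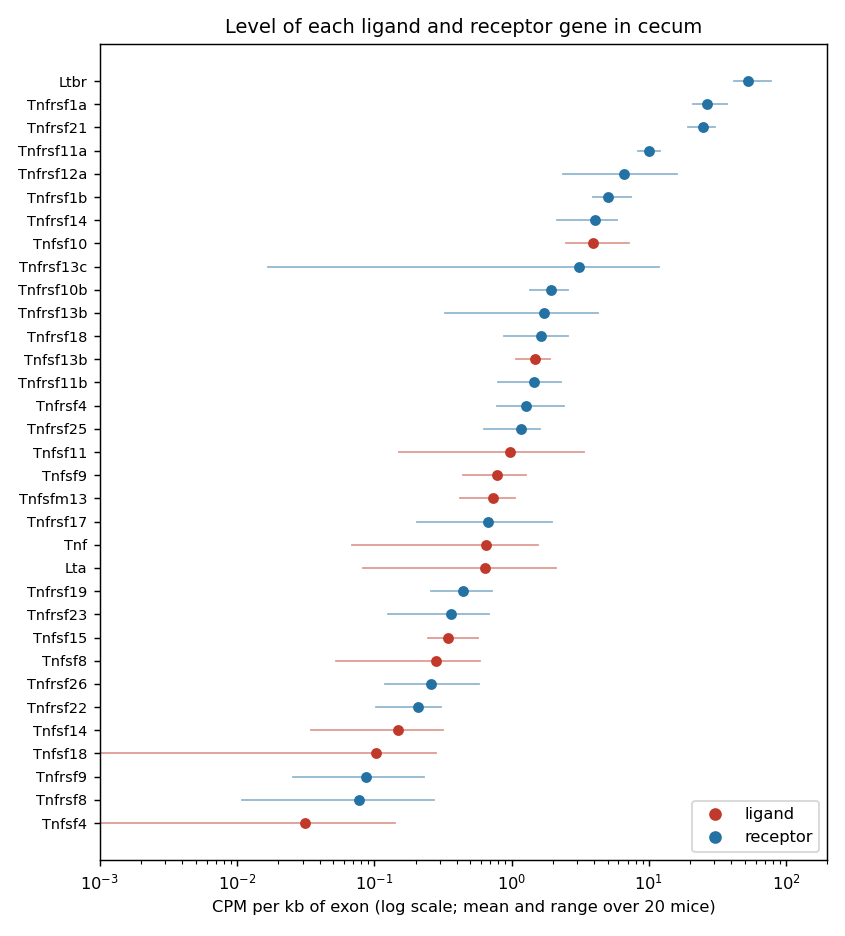
Mean level of each gene with counts in CPM per kb of exon on a log axis, with lines from the lowest to the highest of the 20 mice; red marks ligands and blue receptors, and the lines of Tnfsf18 and Tnfsf4 reach the axis edge because a mouse had 0 counts. Receptors fill the top of the order, from Ltbr at 52.6 CPM per kb, and Tnfrsf13c has the widest range among genes with counts in every mouse.

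Tnfsf12 (TWEAK) and Tnfsf13 (APRIL) were listed with 0 counts in all 20 mice, although both are annotated next to each other on chromosome 11. A further gene, Tnfsfm13 at chr11:69573403-69586924 (minus strand, GRCm39), is a read-through of the pair, and 92% of its 50-base windows are shared with other transcripts. Of its 2235 exon bases, all but 3 lie in exons of Tnfsf12 or Tnfsf13. The junction is shown because it is where the read-through joins both genes. It joins chr11:69577783 to chr11:69575956, with the Tnfsf12 exon in lower case and the Tnfsf13 exon in capitals.
Tnfsfm13 junction: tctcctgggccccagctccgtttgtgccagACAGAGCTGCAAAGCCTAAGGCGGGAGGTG
Tnfsfm13 itself had 21 to 79 counts per mouse. Since Tnfsf12 still has 1005 and Tnfsf13 746 windows found nowhere else in the annotation used here, and the annotation release and the handling of shared reads behind the counts are not given in the sources used here, the listing at 0 was not read as absence of TWEAK or APRIL transcripts, and the value of Tnfsfm13 may include reads of both.

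The central comparison asked which of these genes differed between mice fed 10% RPS and mice fed the TWD alone. The receptors Tnfrsf14, Tnfrsf25 and Tnfrsf19 rose, by 1.69-fold, 1.63-fold and 1.80-fold. In edgeR no gene of the family fell past the threshold (in DESeq2 1 did, Tnfrsf12a, beside 5 that rose), but Tnfrsf21 and Tnfrsf1a were lower by 1.32-fold and 1.34-fold with an adjusted p under the limit. The threshold was an adjusted p of at most 0.05 in edgeR's quasi-likelihood test (Benjamini-Hochberg over all 15348 genes tested) and a fold change of at least 1.5, and 3 of the 30 tested genes passed it, against 1.04% of all genes (0.547% for higher). Without the fold limit the count was 5, against 1.86% of all genes. At an unadjusted p under 0.05, 14 genes were higher and 6 lower, 66.7% of the 30 against 19.5% of all genes (9.74% higher and 9.75% lower). The median log2 fold change of the 30 genes was 0.63, against 0.0041 over all genes. In these bulk samples, fewer cells of a type and less RNA per cell cannot be told apart.

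These calls depended on the fit and on single libraries. When only the 2 diets compared were fitted, 0 genes of the family passed, against 0.658% of all genes. Leaving out 1 mouse at a time gave 0 to 5 genes past the threshold. The count was 0 without mouse 3, 4 or 5 fed 0% or without mouse 1, 2 or 3 fed 10%, it was 1 without mouse 5 fed 10% and 2 without mouse 1 fed 0%, and it was 4 without mouse 4 fed 10% and 5 without mouse 2 fed 0%. The fold changes moved little: that of Tnfrsf14 stayed between 0.67 and 0.86 on the log2 scale, that of Tnfrsf25 between 0.63 and 0.81 and that of Tnfrsf19 between 0.74 and 0.94. The count over all genes went from 160 to between 14 and 344 in the same refits.

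**Figure D2:**
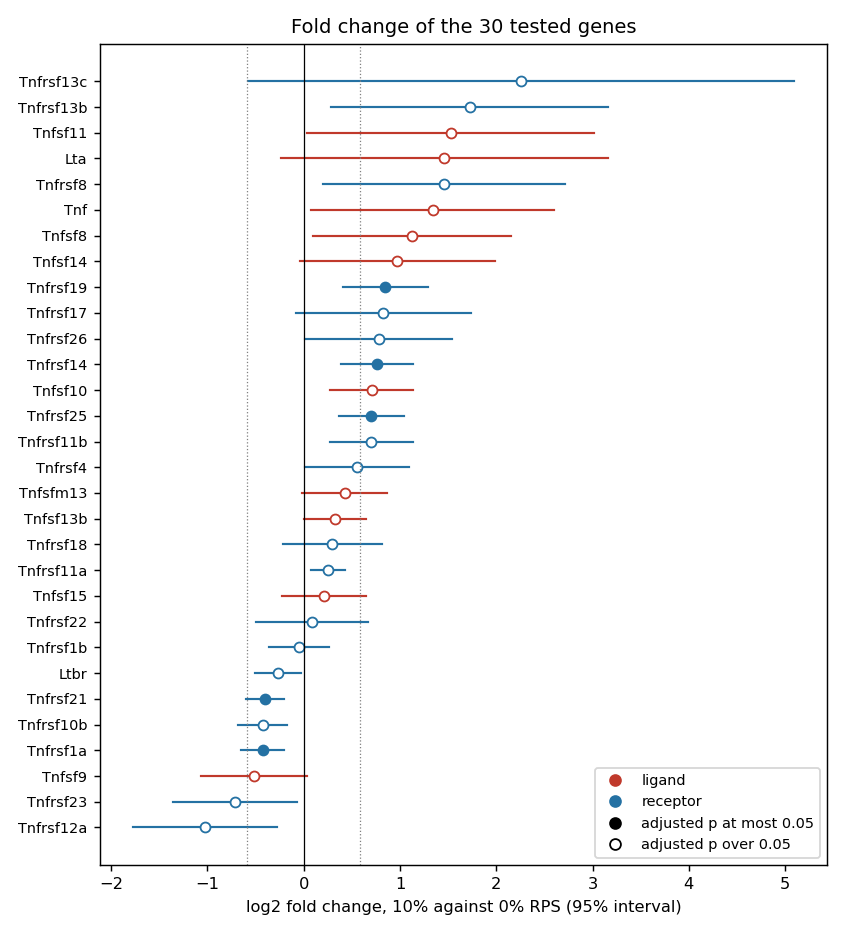
Log2 fold change of the 30 tested genes in mice fed 10% against 0% RPS, with 95% intervals from edgeR's standard errors; red marks ligands, blue receptors, filled points an adjusted p of at most 0.05, and dotted lines a fold of 1.5. The filled points are Tnfrsf19, Tnfrsf14 and Tnfrsf25 on the right and Tnfrsf21 and Tnfrsf1a on the left, whereas the genes with the largest estimates, such as Tnfrsf13c at 2.26, have the widest intervals.

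Tnfrsf14 (HVEM), a receptor for LIGHT and lymphotoxin alpha that is also found on gut epithelium, lies at chr4:155005126-155013020. It stood at 9.41, 8.72, 5.93, 6.92 and 5.82 CPM in the mice fed 0% RPS, at 8.76, 7.37, 12.7, 12.6 and 12.4 with 2%, at 13.6, 12.1, 14.7, 10.4 and 16.0 with 5%, and at 13.5, 15.2, 13.1, 10.7 and 9.60 with 10%. All mice fed 5 or 10% were above all mice fed 0%, whereas with 2% a pair of mice lay within the range of the controls. The log2 fold change was 0.76 (SE 0.18, adjusted p = 0.0358 by edgeR) with 10% RPS and 0.86 (SE 0.18, adjusted p = 0.0459) with 5%. The 2% diet gave 0.55 (SE 0.18, adjusted p = 0.796). At 5% RPS, Tnfrsf14 alone of the 30 genes passed in edgeR (DESeq2 also called Tnfrsf25 and Tnfrsf23), against 0.195% of all genes (0.0977% for higher), and this call was kept without mouse 1 fed 5% but lost on leaving out any other of the 10 mice compared, with the log2 fold change between 0.79 and 0.96.

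Its ligand Tnfsf14 (LIGHT), an activator of T cells made by lymphocytes and dendritic cells, was scarce, with 2 to 19 counts per mouse. It averaged 0.161 ± 0.0639 CPM (SD, n = 5) with 0% RPS and 0.341 ± 0.116, 0.308 ± 0.186 and 0.316 ± 0.161 with 2, 5 and 10%. The groups overlapped and the adjusted p of the 10% comparison was 0.276 in edgeR.

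Tnfrsf25 (death receptor 3), which binds TL1A and costimulates T cells and innate lymphocytes, lies at chr4:152200391-152205299. It stood at 2.64, 2.67, 2.29, 1.88 and 2.61 CPM with 0% RPS, at 3.21, 3.72, 4.79, 3.05 and 3.72 with 2%, at 3.67, 3.74, 3.81, 4.59 and 3.96 with 5%, and at 3.97, 3.85, 4.52, 2.78 and 4.54 with 10%. Every one of the 15 mice given RPS was above every mouse fed 0%, although the lowest, mouse 4 fed 10%, exceeded the highest control by little. Among all tested genes, 0.0977% had all 15 such mice above the controls, and Tnfrsf25 was the only gene of the family to do so. The log2 fold change was 0.70 (SE 0.16, adjusted p = 0.0310 by edgeR) with 10% RPS, 0.71 (SE 0.16, adjusted p = 0.0597) with 5% and 0.62 (SE 0.16, adjusted p = 0.712) with 2%, each against the same 5 controls. Of its 50-base windows, 15% lie opposite exons of Espn, and the strand setting of the counting is not given in the sources used here. Its ligand Tnfsf15 (TL1A) was at 1.85 ± 0.280 CPM (SD, n = 5) with 0% and 2.15 ± 0.359 with 10% RPS, a log2 difference of 0.21 with a 95% interval from -0.23 to 0.64.

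Tnfrsf19 (TROY), an orphan-type receptor known as a Wnt target in intestinal stem cells, lies at chr14:61201283-61284366. It stood at 2.31, 2.43, 2.85, 2.01 and 1.92 CPM with 0% RPS, at 2.19, 4.21, 2.61, 3.95 and 4.03 with 2%, at 2.88, 4.61, 3.30, 3.11 and 2.36 with 5%, and at 4.18, 3.05, 5.37, 4.05 and 4.09 with 10%. Mice fed 10% were all above the controls, whereas those fed 2 or 5% overlapped them. The 10% diet gave a log2 fold change of 0.85 (SE 0.21, adjusted p = 0.0433 by edgeR), and with 2 and 5% it was 0.57 and 0.50 (adjusted p = 0.815 and 0.297).

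**Figure D3:**
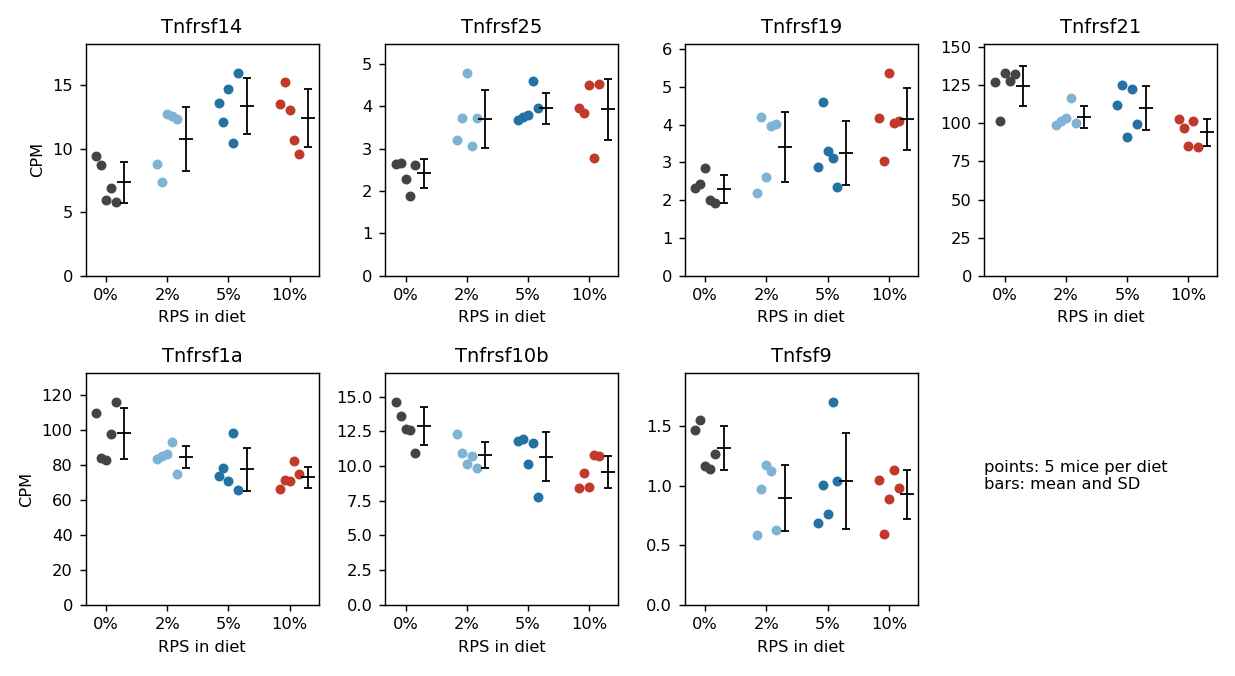
CPM in every mouse (points, 5 per diet) of the 7 genes with an adjusted p of at most 0.05 or with no overlap between 10% and 0% RPS, with the mean and SD beside them and axes from 0. Tnfrsf14, Tnfrsf25 and Tnfrsf19 lie higher with 10% RPS, and Tnfrsf21, Tnfrsf1a, Tnfrsf10b and Tnfsf9 lower.

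The other death domain receptors of the rule had lower means with 10% RPS, none past the fold limit. Tnfrsf1a, the widely expressed receptor that carries most TNF signals, lies at chr6:125325566-125339632, and it stood at 109, 83.7, 83.1, 97.8 and 116 CPM with 0% RPS, at 83.5, 85.1, 86.5, 92.8 and 74.8 with 2%, at 73.8, 78.5, 71.1, 98.2 and 65.8 with 5%, and at 66.0, 71.3, 70.8, 82.0 and 74.5 with 10%. No mouse fed 10% reached the lowest control. The log2 fold change was -0.43 (SE 0.11, adjusted p = 0.0471 by edgeR), under the fold limit, and -0.34 and -0.21 with 5 and 2% (adjusted p = 0.146 and 0.863). With each mouse left out, the 10% value lay between -0.48 and -0.35, and the adjusted p, from 0.0291 to 0.150, was within 0.05 in 2 of 10 refits.

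Tnfrsf21, a death receptor studied mainly in neurons and lymphocytes, lies at chr17:43327349-43400081. It stood at 127, 102, 133, 128 and 133 CPM with 0% RPS, at 99.0, 102, 104, 117 and 101 with 2%, at 112, 125, 91.0, 123 and 99.6 with 5%, and at 103, 97.0, 84.9, 102 and 84.3 with 10%. Mouse 2 fed 0% was far below the other controls and lay within the range of the mice fed 10%. The log2 fold change with 10% RPS was -0.40 (SE 0.10, adjusted p = 0.0352 by edgeR). With each mouse left out it lay between -0.47, without mouse 2 fed 0%, and -0.36, and the adjusted p, from 0.0189 to 0.132, was within 0.05 in 2 of 10 refits.

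Tnfrsf10b, the mouse receptor that passes on the TRAIL death signal, lies at chr14:70004916-70021860. Its values were 14.6, 13.6, 12.7, 12.6 and 10.9 CPM with 0% RPS, 12.3, 11.0, 10.2, 10.7 and 9.85 with 2%, 11.8, 12.0, 10.2, 11.7 and 7.77 with 5%, and 8.44, 9.53, 8.50, 10.8 and 10.7 with 10%. The mice fed 10% lay below the controls, by little at the nearest pair. The log2 fold change of -0.42 (SE 0.12) had an adjusted p of 0.0718 in edgeR. Of the 4 death domain receptors of the rule, 3 thus had an unadjusted p under 0.05 on the lower side and 1, Tnfrsf25, on the higher side, against 9.75% and 9.74% of all genes. The death domain receptors with other names, Fas, Edar and Ngfr, had log2 fold changes of 0.29, 0.62 and -0.03, with unadjusted p of 0.0566, 0.0507 and 0.915 in edgeR.

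The TRAIL ligand and the receptors grouped with it that lack a death domain did not pass the threshold in edgeR. Tnfsf10 (TRAIL) ranged from 13.5 to 18.0 CPM with 0% and from 14.7 to 38.6 with 10% RPS, a log2 fold change of 0.71 with an adjusted p of 0.0765 in edgeR. It passed the threshold in DESeq2 (adjusted p = 0.0243) and, in edgeR, without mouse 4 fed 10% (0.86, adjusted p = 0.0174). Tnfrsf22, Tnfrsf23 and Tnfrsf26 form a cluster on chromosome 7, and the former pair encodes decoy receptors for TRAIL. Their coding sequences are shown over 60 aligned bases because reads of 50 bases cannot be split where they are identical. Capitals mark positions that are not the same in all of them.
Tnfrsf22: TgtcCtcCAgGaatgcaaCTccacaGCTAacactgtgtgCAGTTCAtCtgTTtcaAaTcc
Tnfrsf23: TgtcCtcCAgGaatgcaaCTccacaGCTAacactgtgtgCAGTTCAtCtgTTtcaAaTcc
Tnfrsf26: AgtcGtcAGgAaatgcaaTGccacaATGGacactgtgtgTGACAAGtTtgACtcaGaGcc
Here Tnfrsf22 and Tnfrsf23 were identical at all 60 positions and the 3 genes at 37. Over the coding sequence, Tnfrsf22 and Tnfrsf23 had 89.8% identity, and over their whole transcripts they shared 720 windows of 50 bases, so that counts of this pair are uncertain, whereas Tnfrsf22 and Tnfrsf26 had 54.1%. Tnfrsf23 was at 2.32 ± 0.578 CPM (SD, n = 5) with 0% RPS and at 1.10 ± 0.319 and 1.43 ± 0.730 with 5 and 10%, with log2 fold changes of -1.05 and -0.71 (adjusted p = 0.124 and 0.217 by edgeR), and DESeq2 called it lower with 5%. Tnfrsf22 differed by 0.09 with 10% RPS (95% interval from -0.50 to 0.67). Tnfrsf26 was at 0.730 ± 0.250 and 1.26 ± 0.542 CPM with 0 and 10% RPS (adjusted p = 0.248).

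Other receptors without a death domain gave smaller or less certain differences. Ltbr, needed for lymphoid organ formation, was at 140 ± 27.7 CPM (SD, n = 5) with 0% and 116 ± 11.3 with 10% RPS, a log2 difference of -0.27 (adjusted p = 0.206 by edgeR). Tnfrsf12a (Fn14), the TWEAK receptor that is induced on injury, ranged from 10.4 to 31.3 CPM with 0% and from 6.45 to 13.0 with 10% RPS, and its log2 fold change of -1.03 had an adjusted p of 0.130 in edgeR and of 0.0429 in DESeq2, where it passed the threshold. Since 71.7% of its windows lie opposite Hcfc1r1, its counts may hold reads of that gene if strand was not used. Tnfrsf1b (TNF receptor 2), found mainly on leukocytes, was at 26.5 ± 6.20 and 25.6 ± 3.59 CPM, a log2 difference of -0.05 with a 95% interval from -0.36 to 0.26. Its sign was not stable and turned to 0.10 without mouse 1 fed 0%.

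The 3 genes of the RANK system had higher means with 10% RPS and an unadjusted p under 0.05, as had 9.74% of all genes, but in edgeR none had an adjusted p under the limit. Tnfrsf11a (RANK), whose signal drives M cell formation over follicles, went from 67.8 ± 6.78 to 80.6 ± 9.44 CPM (SD, n = 5), a log2 fold change of 0.25 (adjusted p = 0.121 by edgeR). Tnfrsf11b (osteoprotegerin), the soluble decoy for RANK ligand, was at 3.48 ± 0.909, 3.89 ± 0.784, 4.58 ± 0.736 and 5.65 ± 1.44 CPM with 0, 2, 5 and 10% RPS. The 10% value differed from the control by 0.70 on the log2 scale (adjusted p = 0.0778 in edgeR, and 0.0230 in DESeq2, where it passed the threshold). Tnfsf11 (RANK ligand) ranged from 0.338 to 3.78 CPM with 0% and from 0.645 to 7.50 with 10% RPS, with a log2 fold change of 1.53 and an adjusted p of 0.247. With each mouse left out this ran from 1.09 to 2.48, the latter without mouse 2 fed 0%, and the adjusted p from 0.0563 to 0.449.

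Among the tested genes Tnfrsf13c varied most between mice. Tnfrsf13c (BAFF receptor), which mature B cells need to survive, is given in every mouse although it passed no threshold, chosen after its values were seen. It stood at 1.24, 10.4, 0.375, 0.806 and 0.287 CPM with 0% RPS, at 0.389, 0.0348, 24.6, 2.44 and 0.349 with 2%, at 4.63, 0.288, 7.55, 12.3 and 0.754 with 5%, and at 12.0, 0.800, 17.3, 15.8 and 15.8 with 10%. Values above 3 CPM occurred in 1 mouse fed 0%, 1 fed 2%, 3 fed 5% and 4 fed 10%, and mouse 2 fed 2% had 1 count. The log2 fold change of 2.26 with 10% RPS had a 95% interval from -0.58 to 5.09 (adjusted p = 0.366 by edgeR). With each mouse left out it ran from 1.98 to 4.18, the latter without mouse 2 fed 0%, and the adjusted p from 0.122 to 0.511. Its coefficient of variation over the 20 mice was 117%, against 91.0% for Lta, 81.9% for Tnfrsf13b, 17.7% for Tnfsf13b and 14.9% for Ltbr.

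The same mice were high in B cell markers. The summed level of 8 such markers was 34.6, 235, 6.68, 21.7 and 5.88 CPM with 0% RPS, 6.37, 3.48, 350, 45.8 and 10.9 with 2%, 81.5, 7.97, 145, 153 and 9.66 with 5%, and 256, 16.2, 328, 264 and 315 with 10%. In each of the 4 diets the mouse with the highest and the one with the lowest Tnfrsf13c was also the highest and the lowest in this sum. None of the 8 markers had an unadjusted p under 0.05 with 10% RPS, at a median log2 fold change of 2.04, and none was at 0 in any mouse. Of the 4 markers of M cells and follicles, Gp2 was at 0 in some mice. T cell markers ranged from 22.6 to 50.7 CPM with 0% and from 17.1 to 54.5 with 10% RPS, and markers of M cells and follicles from 11.2 to 81.2 and from 13.3 to 105 CPM. Smooth muscle markers summed to a median of 1870 CPM (range 1462 to 3871) with 0% and 3260 (2406 to 3888) with 10% RPS. Endothelial markers summed to a median of 87.8 CPM (80.6 to 99.1) with 0% and 90.7 (69.7 to 99.1) with 10%. Of these, Kdr had means of 28.3 and 22.6 CPM, Cdh5 of 15.6 and 12.6 and Pecam1 of 45.1 and 52.1. Of the 61 markers of all cell types tested, 10 were higher and 5 lower with 10% RPS at an unadjusted p under 0.05, and none passed the threshold. The lowest p belonged to Sdc1, a plasma cell marker also made by epithelium, at -0.55 on the log2 scale (adjusted p = 0.0376 by edgeR, under the fold limit), and to the regulatory T cell marker Ctla4 at 1.71 (adjusted p = 0.0746). The plasma cell list went both ways, with 1 marker higher and 1 lower at an unadjusted p under 0.05 in edgeR. Its median log2 fold change was 0.44. Mean CPM rose from 2.97 to 7.71 for Irf4 and from 188 to 255 for Jchain, and fell from 24.5 to 20.3 for Prdm1. Fibroblast markers went both ways, with Col1a1 at 0.68 and Pdgfra at -0.31 (unadjusted p = 0.0105 and 0.0222 in edgeR). The part of these cells in the results was not tested beyond a refit with the B cell sum as a term, chosen after seeing the data. In that refit 0 of the 30 genes and 0.658% of all genes passed the threshold with 10% RPS. Tnfrsf14 then had a log2 fold change of 0.67, Tnfrsf25 of 0.61 and Tnfrsf19 of 0.87, with adjusted p of 0.0730, 0.0753 and 0.0718 in edgeR. In the same refit the log2 fold change went from 2.26 to 0.14 for Tnfrsf13c, from 1.46 to 0.12 for Lta, from 1.12 to 0.17 for Tnfsf8 and from 1.53 to 0.42 for Tnfsf11. It went from 1.72 to 0.72 for Tnfrsf13b, from 1.34 to 0.62 for Tnf, from 1.45 to 0.70 for Tnfrsf8 and from 0.78 to 0.15 for Tnfrsf26. Not all of the 30 genes are listed here. The B cell sum itself had a median of 21.7 CPM with 0% and 264 with 10% RPS. Diet and B cell content therefore cannot be told apart in this refit.

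**Figure D4:**
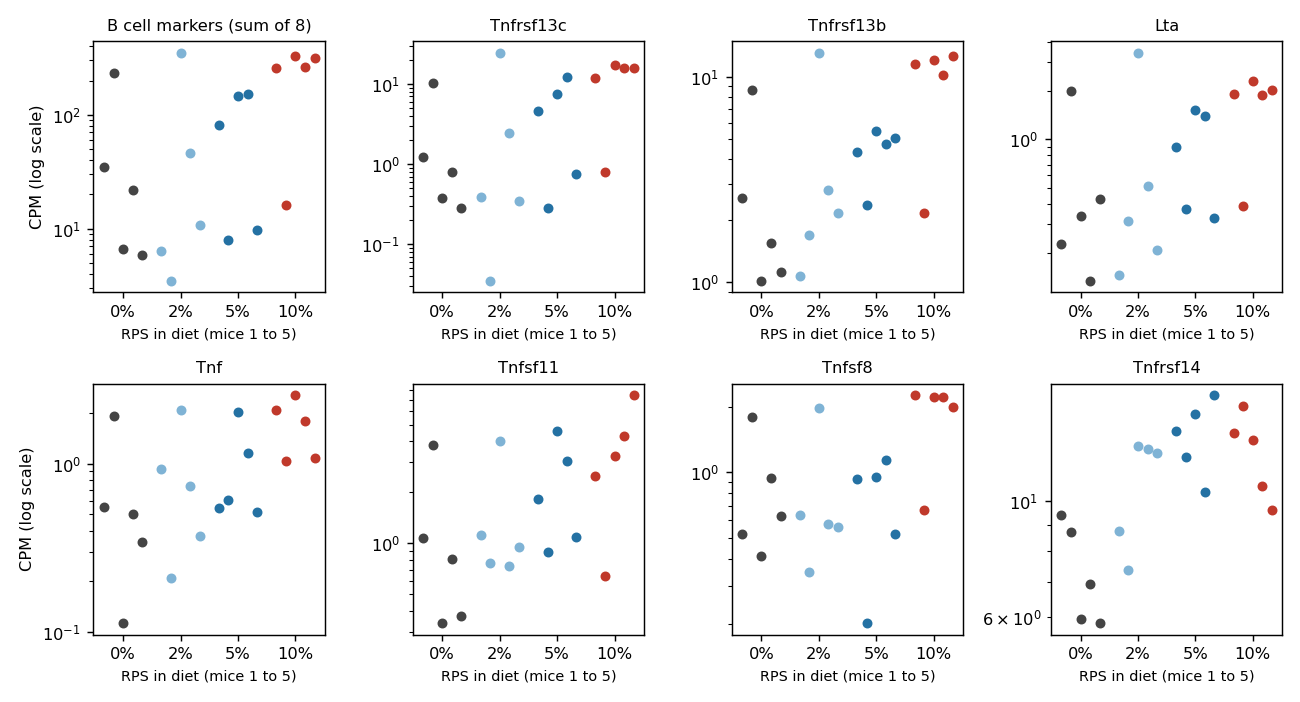
CPM in every mouse on log axes of the summed 8 B cell markers, of 6 genes picked from the family and of Tnfrsf14. Within a diet, mice 1 to 5 run from left to right. Tnfrsf25, not plotted, shared its highest mouse with the marker sum in 3 of the 4 diets. This held in 2 diets for Tnfrsf13b and Tnfsf11 and in 1 for Tnfrsf14. Mouse 2 fed 0% and mouse 3 fed 2% stand above their groups and mouse 2 fed 10% below it in the marker sum, Tnfrsf13c, Tnfrsf13b and Lta; in Tnfrsf14 mouse 2 fed 10% and mouse 3 fed 2% are the highest of their groups and mouse 2 fed 0% is below mouse 1.

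Tnfrsf13b (TACI), a second BAFF and APRIL receptor of B cells, ranged from 1.01 to 8.64 CPM with 0% and from 2.17 to 12.7 with 10% RPS, with a log2 fold change of 1.72 (adjusted p = 0.181 by edgeR). With each mouse left out it stayed positive, at most 2.64 without mouse 2 fed 0%, the highest control, and the adjusted p, from 0.0396 without that mouse to 0.325, was within 0.05 in that 1 of 10 refits. Tnfrsf17 (BCMA), which marks plasma cells, was at 0.438 ± 0.220 and 0.769 ± 0.314 CPM (SD, n = 5) with 0 and 10% RPS (adjusted p = 0.301). Tnfsf13b (BAFF) was at 9.20 ± 1.83 and 11.5 ± 1.69 CPM (adjusted p = 0.256), and Tnfsfm13 at 1.44 ± 0.321 and 1.93 ± 0.254 CPM (adjusted p = 0.278).

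Tnf and Lta, neighbours on chromosome 17, were highest in the mouse with the highest T cell marker sum in all 4 diets, and in the mouse with the highest sum of B cell markers, or of M cell and follicle markers, in 3 of the 4. Such matches were looked up for all 30 tested genes and several marker lists. Tnfrsf26 also matched the T cell sum in all 4 diets. The lowest mouse matched that sum in 2 diets for Tnf and in 1 for Lta. Tnf, the main inflammatory cytokine of the family, ranged from 0.113 to 1.91 CPM with 0% and from 1.03 to 2.56 with 10% RPS, with a log2 fold change of 1.34 (SE 0.61, adjusted p = 0.234 by edgeR). Lta, a lymphotoxin made by lymphocytes, ranged from 0.134 to 1.99 and from 0.387 to 2.28 CPM, with a log2 fold change of 1.46 (SE 0.81, adjusted p = 0.329). Mouse 2 fed 0% was the highest control for both. With each mouse left out the value of Tnf ran from 1.07 to 2.16, with adjusted p from 0.0496, without that mouse, to 0.426, and that of Lta from 1.21 to 2.55, with adjusted p from 0.0885 to 0.492.

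The 4-1BB ligand and the tested genes of the OX40, GITR and CD30 pairs, which act on T cells, did not pass the threshold in edgeR or in DESeq2. Tnfsf9 (4-1BB ligand) stood at 1.46, 1.55, 1.16, 1.14 and 1.26 CPM with 0% RPS, at 0.584, 0.974, 1.17, 1.13 and 0.628 with 2%, at 0.685, 1.01, 0.761, 1.70 and 1.04 with 5%, and at 1.05, 0.594, 0.885, 1.13 and 0.975 with 10%. The mice fed 10% did not overlap the controls, although the nearest pair almost touched, and the log2 fold change of -0.52 had an adjusted p of 0.289 in edgeR. Altogether 6 of the 30 genes did not overlap between 10 and 0% RPS (3 higher and 3 lower), against 4.88% of all tested genes (1.68% higher and 3.2% lower).

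Tnfrsf4 (OX40), a receptor of activated T cells, was at 1.36 ± 0.268 and 2.00 ± 0.505 CPM (SD, n = 5) with 0 and 10% RPS (adjusted p = 0.249 by edgeR). Tnfrsf18 (GITR), high on regulatory T cells, was at 2.44 ± 0.562 and 3.00 ± 0.579 CPM (adjusted p = 0.538), and 26.5% of its windows lie opposite another annotated gene. Tnfsf8 (CD30 ligand) was at 0.859 ± 0.557 and 1.87 ± 0.679 CPM and its receptor Tnfrsf8 (CD30) at 0.155 ± 0.0847 and 0.433 ± 0.342 CPM, with adjusted p of 0.223 and 0.193. Among the 4 regulatory T cell markers, Foxp3 had means of 0.526 and 1.14 CPM with 0 and 10% RPS (1.11 on the log2 scale, adjusted p = 0.238 by edgeR) and Ctla4 of 0.817 and 2.65 CPM. Their sum, from 33.1 to 67.6 CPM with 0% and from 52.8 to 91.7 with 10% RPS, was mostly Ikzf2 (55.2 and 71.2 CPM), and the part of these cells in the values was not tested.

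The lower doses gave fewer differences. With 2% RPS none of the 30 genes passed the threshold (0% of all genes), 7 had an unadjusted p under 0.05 against 5.77% of all genes, and the lowest adjusted p in edgeR was 0.712, that of Tnfrsf25; DESeq2 also called 0. With 5% RPS 9 had an unadjusted p under 0.05, against 13.3% of all genes. The 10% diet gave 0 calls in edgeR and in DESeq2 against the 5% diet and against the 2% diet (0% of all genes each in edgeR), with 3 genes at an unadjusted p under 0.05 in either, against 2.79% and 4.69% of all genes. A linear trend over the dose was called in 0 of 30 genes, against 1.11% of all genes, while 21 had an unadjusted p under 0.05 (18.8% of all genes), and DESeq2 called 7, with 4.84% of all genes. The lowest adjusted p of the trend was 0.0573 in edgeR, that of Tnfrsf1a, followed by 0.0612 for Tnfrsf11b. The comparisons with 0% RPS share the same 5 control mice.

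Few genes of the same pathways outside the naming rule passed the threshold with 10% RPS. Of 11 NF-kB subunits and inhibitors, 1 passed it, against 1.04% of all genes: Rel, the c-Rel subunit of lymphocytes, rose from a mean of 12.8 to 21.2 CPM (log2 fold change 0.73, SE 0.18, adjusted p = 0.0376 by edgeR), and its trend over the dose had an adjusted p of 0.0333. Of 28 adaptors and kinases none passed, with 7 higher and 1 lower at an unadjusted p under 0.05, against 9.74% and 9.75% of all genes, and a median log2 fold change of 0.0012. The lowest p among them belonged to Birc3, an inhibitor of apoptosis induced by NF-kB, at 41.8 and 58.5 CPM (log2 fold change 0.49, adjusted p = 0.0468, under the fold limit), and to Tnfaip3, which ends NF-kB signalling, at 25.0 and 38.6 CPM (0.63, adjusted p = 0.0644). A list of 13 further genes held 12 ligands and receptors with other names and Edaradd, the adaptor of the receptor Edar. Of the 12, 8 could be tested and none passed, with a median log2 fold change of 0.49 and Relt, a receptor of lymphoid tissue, at 1.16 the 1 gene at an unadjusted p under 0.05. Edaradd was at 1.60 on the log2 scale (adjusted p = 0.136 by edgeR). None of the 5 shedding proteases had an unadjusted p under 0.05.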

How the data were processed

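Cecum RNA of 20 mice was measured by poly(A) sequencing with a stranded kit and single reads of 50 bases. Per the study's methods, the authors removed low-quality bases and ambiguous reads, mapped to GRCm39 with the CLC Genomics Workbench and deposited whole-number read counts per gene. The annotation release, strand setting and treatment of multiply mapped reads are not given in the sources used here. From these counts, genes passing edgeR's filter (minimum 10, total 15) were TMM-scaled and fitted over all 4 diets with the quasi-likelihood test of edgeR 4.0.16 in R 4.3.3, with p-values adjusted by Benjamini-Hochberg over 15348 genes. The trend used dose as a number. DESeq2 1.42.0, other scaling, filters and each mouse left out were the alternatives. The test was checked on simulated data. CPM are counts scaled to 1000000 per library; a count of 0 allows up to 3 counts, or 0.0698 to 0.190 CPM, for counting error only. Between mice of 1 diet, counts differed by far more than sampling noise. All genes of the rule are accounted for, with values in every mouse for those with an adjusted p of at most 0.05 or no overlap of 10 and 0% RPS, and others in brief; genes of the pathway lists are named where past the threshold or, otherwise, the pair with the lowest p, whereas Fas, Edar, Ngfr and single cell type markers were chosen after their values were seen. Genes and lists were chosen with earlier results of these data known. Sequences were read from GRCm39 with GENCODE.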

Additional observations from a re-analysis of the deposited data

Results flagged for a closer look

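Within each diet, the highest and the lowest of the 5 mice were compared with the others for each of the 30 tested genes, by the gap to the nearest mouse as a share of the group's range. In 18 of 120 groups this share was above the 95% limit of 0.71, which chance passes in about 1 of 20 groups when values are normally distributed. CPM were taken without logs, so this rate may not hold here, least of all for genes with few counts. The genes share their mice, so these groups are not independent.

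Mouse 2 fed 0% RPS was far above the others in Lta (share 0.841, 1.99 CPM against at most 0.430), Tnf (0.755), Tnfrsf13b (0.796), Tnfrsf13c (0.906, 10.4 CPM against at most 1.24) and Tnfsf11 (0.786), and far below them in Tnfrsf21 (0.812, 102 CPM against at least 127). Mouse 3 fed 2% RPS was far above its group in Lta (0.887), Tnfrsf13b (0.854), Tnfrsf13c (0.902, 24.6 CPM against at most 2.44), Tnfrsf8 (0.78), Tnfsf11 (0.884) and Tnfsf8 (0.825). Mouse 2 fed 10% RPS was far below its group in Lta (0.793), Tnfrsf13b (0.768, 2.17 CPM against at least 10.3), Tnfrsf1b (0.727) and Tnfsf8 (0.826). Mouse 4 fed 5% RPS was high in Ltbr (0.715, 151 CPM against at most 120) and mouse 4 fed 2% in Tnfrsf21 (0.728). The summed B cell markers of these mice were 235 CPM in mouse 2 fed 0%, 350 in mouse 3 fed 2% and 16.2 in mouse 2 fed 10%. The part of these cells in the values was not tested beyond the refit with the B cell marker sum as a covariate.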

How the results depend on the processing

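No paired analysis was possible because no mouse number of the labels occurs in more than 1 diet. With 10% against 0% RPS the count of 3 became 6 with DESeq2's Wald test (2.46% of all genes, against 1.04%), 0 when only the 2 diets were fitted (0.658%), 5 with no fold limit and, chosen after seeing the data, 0 with the B cell marker sum as a covariate (0.658%); leaving out each mouse gave 0 to 5 (0.0907 to 2.23%). With 5% against 0% RPS the count of 1 became 3 with DESeq2 (1.41% of all genes, against 0.195%) and 0 to 2 with each mouse left out (0 to 0.739%). The trend count of 0 became 7 with the rank of the dose (3.51% of all genes, against 1.11%), 7 with DESeq2 (4.84%) and 0 to 6 with each mouse left out (0 to 4.37%). The cause was not tested, other than that leaving out a mouse leaves fewer samples. The other comparisons kept 0 under the alternatives tried. Over single genes with 10% RPS (and Tnfrsf14 with 5%), 469 of the refitted values kept direction and side of the threshold, 36 lost and 6 gained a call, and 5 changed sign: Tnfrsf1b (-0.11 to 0.10 with each mouse left out) and Tnfrsf22 (-0.014 to 0.26, and -0.16 with the B cell covariate). Depth limits Tnfrsf8, Tnfsf14 and the 3 untested low genes, which have few counts per mouse.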
